A study of Arabidopsis thaliana with 6 samples.

Results

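The array described here compared RNA of Arabidopsis thaliana plants treated with 5 mM salicylic acid (SA) for 5 h, labelled with Cy5, with RNA of untreated plants, labelled with Cy3. It is 1 of 6 microarrays of the series and was chosen by its title. All plants on it were 28-day plants of the Columbia ecotype, sampled whole without the root. The other SA arrays hold plants treated with 5 mM SA for 2, 10 and 24 h against untreated plants, with 1 array per time, and the remaining 2 arrays hold plants overexpressing SIBA (CA32F3 and CA32F4, called line 1 and line 2) against vector control plants. Cy5 was the treated or overexpressing plant on every array and no dye swap was made. The labels do not say how SA was applied, how many plants were pooled, at which hour of the day plants were taken, or how the untreated plants of the 4 SA arrays relate to each other. With no replicate at any SA time, every difference below is a size on 1 array and carries no p-value. The error given beside some values is the scanner software's own estimate for that spot, which covers the spot and not the plants.

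Salicylic acid is a hormone of plant immunity. In chloroplasts the enzyme ICS1 makes isochorismate from chorismate, an exporter carries isochorismate out, and PBS3 couples it to glutamate to give a conjugate that breaks down to SA. The hormone is perceived by NPR proteins, which act with TGA factors on genes such as PR1, and glucosyltransferases, a sulfotransferase and hydroxylases turn it into inactive forms. Plants given SA from outside are also known to switch on detoxification enzymes and to hold back growth.

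Of 21500 probes, 21476 had a value at 5 h after 24 spots with outlier marks were left out, and 21342 carry 1 gene locus. The median signal above local background was 206.5 in SA-treated and 171.5 in untreated plants at 5 h. On the 2 h array the same medians were only 21.5 and 60, so values at that time are less well measured. At 24 h the medians were 404 and 260, but 1722 spots were left out and have no value there. The scanner software's median error was 0.18 log2 units at 5, 10 and 24 h and 0.29 at 2 h.

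At 5 h, 1307 probes (6.09%) were at least 2-fold higher and 785 (3.66%) at least 2-fold lower in SA-treated than in untreated plants. The corresponding shares were 3.84% higher and 2.31% lower at 2 h, 7.3% and 4.43% at 10 h, and 5.31% and 5.63% at 24 h. By the 2-fold count the 10 h array was thus ahead of the 5 h array in both directions. Large increases were most frequent at 5 h among the 4 times: 165 probes were at least 8-fold higher, against 100 at 2 h, 107 at 10 h and 59 at 24 h. At least 16-fold, the count was 60 at 5 h, against 44, 31 and 11 at the other times in the same order. Large decreases were few, with 77 probes at least 4-fold lower at 5 h and 129 at 10 h. Only 5 probes were at least 8-fold lower at 5 h. Brightness, together with this offset, limits what can be seen as lower. When probes were divided into 4 equal groups by untreated signal, 0 of 5369 in the dimmest group (median 35.3 above background) were at least 2-fold lower, against 11.1% in the brightest group. With an offset of 50 added to both channels, a spot this dim could hardly pass 2-fold lower, so the processing largely set this outcome. With an offset of 16, 981 probes in place of 785 were at least 2-fold lower.

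**Figure D1:**
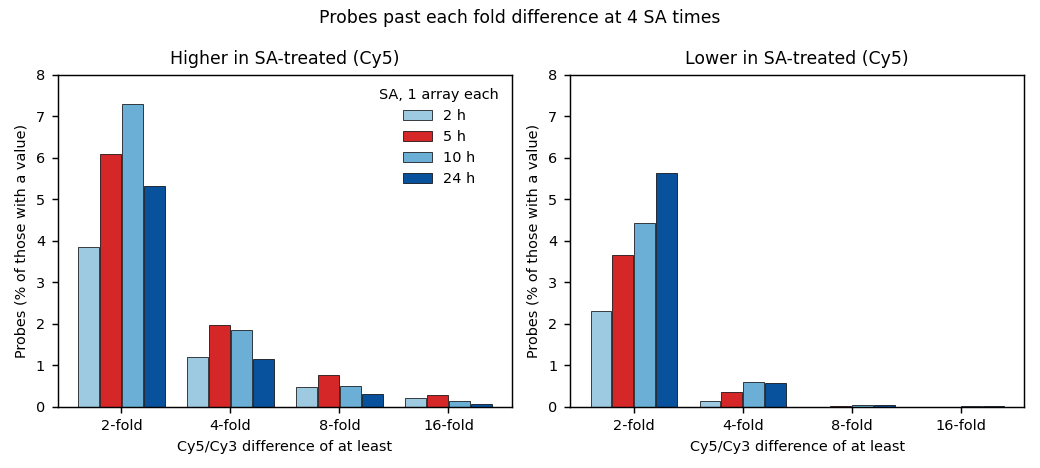
Share of probes (%) whose Cy5/Cy3 ratio passed a 2-, 4-, 8- or 16-fold difference at 2, 5, 10 and 24 h of SA, higher in SA-treated plants on the left and lower on the right; each bar is 1 array. The 5 h bar is above the 10 h bar from 4-fold upward on the left, although the 10 h bar is the taller at 2-fold.

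The genes furthest above untreated plants at 5 h included enzymes of detoxification and SA modification. AT4G01870, which the array annotation calls a hypothetical protein, had a signal of 64853 in SA-treated and 345 in untreated plants. Its Cy5 spot was saturated, so it was at least 144-fold higher. Its log2 ratio was 7.17 at both 2 h and 5 h, 5.79 at 10 h and 4.58 at 24 h.

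UGT74E2, a glucosyltransferase that acts on the auxin precursor indole-3-butyric acid, followed with signals of 17655 in SA-treated and 216 in untreated plants, a log2 ratio of 5.83 with a spot error of 0.50. UGT85A1, which glucosylates cytokinins, gave 49153 and 742, a log2 ratio of 5.77. The glutaredoxin gene GRXS13 gave 16954 and 246, a log2 ratio of 5.61. All 3 were at their highest of the 4 times at 5 h, but the 2 h values of 5.50, 5.40 and 4.78 lie close by.

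SAG21, a late embryogenesis abundant protein of senescing leaves, had a log2 ratio of 5.62. The calcium-binding protein gene CP1 had 5.57, AT3G60420 had 5.56, and HR4, a relative of the powdery mildew resistance gene RPW8, had 5.45. NIMIN1, whose product binds NPR1 and restrains PR1, had 5.34, and UGT76B1, a glucosyltransferase of SA and related immune signals, had 5.32. The NAC factor gene ATAF2 stood at 5.28, below its 2 h value of 6.19. AT4G39670, LHT7 of an amino acid transporter family, the cytochrome P450 gene CYP81D8 and the small heat shock protein gene AT1G07400 completed the first 15, between 5.16 and 5.34. CP1 moved apart from the rest of this set, with log2 ratios of 4.39, 5.57, 1.72 and 3.19 at 2, 5, 10 and 24 h.

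The 15 lowest genes at 5 h included genes of cold acclimation, cell walls and plastids. COR15B, which encodes a chloroplast protein made in the cold, had signals of 219 in SA-treated and 3252 in untreated plants, a log2 ratio of -3.90 with a spot error of 0.36. Its relative COR15A gave 607 and 3566, a log2 ratio of -2.75. AT4G30650, annotated as responsive to low temperature and salt, gave 216 and 2977, a log2 ratio of -3.79. COR413IM1, an inner membrane protein of chloroplasts made in the cold, stood at -2.74. On the array of overexpressor line 2, COR15B, COR15A, AT4G30650 and COR413IM1 had log2 ratios of -3.34, -3.05, -4.02 and -1.64.

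EXPA8, an expansin that loosens cell walls, gave 405 in SA-treated and 4287 in untreated plants, a log2 ratio of -3.55. The desaturase gene ADS1 had a log2 ratio of -3.33, DRT100 had -3.00, and AT3G07010, a pectate lyase, had -2.96. IPMI1 and CYP83A1, which serve glucosinolate synthesis, had -2.92 and -2.68. The beta-glucosidase gene BGLU44 and the plastid envelope channel gene OEP16-1 both had -2.87, and the starch phosphorylase gene PHS2 had -2.80. AT1G29670, a lipase or hydrolase by annotation, and AT3G04550 stood at -2.83 and -2.79.

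**Figure D2:**
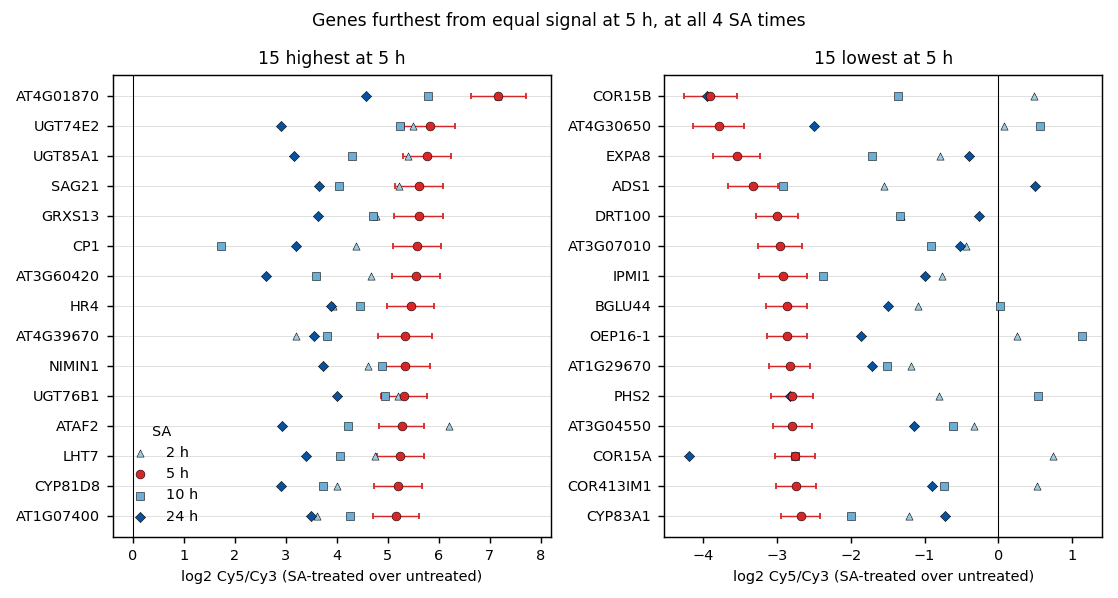
Log2 Cy5/Cy3 ratios (SA-treated over untreated) of the 15 highest genes at 5 h on the left and the 15 lowest on the right, at 2, 5, 10 and 24 h, 1 array per time; red bars are the scanner software's error of the 5 h spot. The highest genes were above untreated plants at all 4 times, while several of the lowest, COR15B and AT4G30650 among them, were near or above 0 at 2 h.

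Among 10 genes of SA and pipecolic acid synthesis, 6 were at least 2-fold higher at 5 h and 0 at least 2-fold lower. Over all probes, 6.09% were higher and 3.66% lower by the same threshold, and the counts of every list below are to be read beside these shares. The list median was 1.51 log2 units, against 0.00 over all probes, and at 2, 10 and 24 h it was 0.32, 0.29 and 0.61. ICS1 had signals of 936 in SA-treated and 95 in untreated plants, and log2 ratios of 0.49, 2.65, -0.21 and -0.37 at 2, 5, 10 and 24 h. PBS3 had 1337 and 77, and ratios of 0.14, 3.35, 0.45 and 0.95. Both genes were thus at least 2-fold higher at 5 h alone among the times measured. EDS5, the plastid exporter of isochorismate, had 1.72, 2.63, 1.14 and 1.14. AT5G52810, a further member of the list, had 3.66, 4.31, 2.14 and 2.37. CBP60g and SARD1, factors that activate ICS1, had 1.81 and 1.2 at 5 h. FMO1 and ALD1, which make N-hydroxypipecolic acid, stood at 0.45 and 0.29.

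In the list of SA perception and signalling, 4 of 15 genes were at least 2-fold higher and 0 lower. NIMIN1 led the list, with 5616 in SA-treated and 77 in untreated plants. PAD4, a partner of EDS1 in immune signalling, had a log2 ratio of 3.49 at 5 h, against 1.84, 2.16 and 1.11 at 2, 10 and 24 h. The SA receptor genes NPR3 and NPR1 had 2.29 and 1.23. The TGA factor genes stayed within 2-fold, from -0.10 for TGA2 to 0.46 for TGA5 and TGA1, and EDS1 stood at 0.33.

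Among enzymes that modify SA, some had large ratios and others were near 0. UGT74F2 and UGT74F1, which attach glucose to SA, had log2 ratios of 5.06 and 3.55 at 5 h, and UGT76B1 had 5.32. SOT12, a sulfotransferase that sulfonates SA, had signals of 11856 in SA-treated and 290 in untreated plants and ratios of 2.63, 4.89, 2.85 and 0.75 at 2, 5, 10 and 24 h. DMR6, an SA hydroxylase, had 3.72. The other 6 of 11 genes stayed within 2-fold, among them the hydroxylase gene DLO1 at 0.62 and the methyltransferase gene BSMT1 at 0.10.

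Defence outputs were split in the same way at 5 h. Of 12 genes, 6 were at least 2-fold higher and 0 lower. GRXS13, the glutaredoxin gene GRX480 and SIB1 had log2 ratios of 5.61, 4.88 and 3.71. SIB1 is the gene overexpressed as SIBA, and its product is known as a partner of SIG1, a sigma factor of plastids. Its signals were 19654 in SA-treated and 1249 in untreated plants, its ratios at 2 and 10 h were 4.46 and 2.89, and its 24 h spot had an outlier mark. AIG1, a gene induced by an avirulence factor, had 0.13 at 2 h and 3.17 at 5 h.

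The pathogenesis-related genes PR1, PR2 and PR5 were within 2-fold of untreated plants at 5 h, on a scale where the offset of 50 added to each signal pulls ratios of dim spots toward 0. PR1 had a signal of 216 in SA-treated and 104 in untreated plants, a log2 ratio of 0.71, against 2.47 at 10 h and 2.89 at 24 h. At 2 h the untreated signal was so low that the scanner software put a surrogate in its place, so the 2 h ratio is not compared. PR2, a glucanase, had -0.05 and PR5, a thaumatin-like protein, had -0.25 at 5 h, and neither reached 2-fold at any of the 4 times. Each ratio is against the untreated plants of its own array, whose PR2 and PR5 levels differed between arrays, as given further on. PDF1.2a, an output of jasmonate and ethylene, had -0.46.

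Of 32 WRKY factor genes, 14 were at least 2-fold higher and 0 lower at 5 h, with a median of 0.65. WRKY40 had log2 ratios of 3.27, 3.74, 3.44 and 1.62 at 2, 5, 10 and 24 h. WRKY38 and WRKY62, which bind histone deacetylase HDA19, had 3.3 and 2.68 at 5 h, and WRKY54 had 2.66. WRKY70, a regulator at the junction of SA and jasmonate signalling, had 2.87, 1.51, 3.75 and 1.53, so that its 5 and 24 h values were close together and below the others.

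In the list of NAC, zinc finger, ERF and MYB stress factors, 14 of 26 genes were at least 2-fold higher and 0 lower, with a median of 1.32. ATAF2, ZAT10, NAC102 and ATAF1 led with 5.28, 4.38, 4.26 and 3.04. Each of these 4 had a larger ratio at 2 h, of 6.19, 6.07, 4.81 and 4.07. ZAT12 and ERF104 had 4.92 and 3.81 at 2 h and 2.1 and 1.32 at 5 h.

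Detoxification was the list with the highest median at 5 h, 2.96 over 19 glucosyltransferases, oxidoreductases and exporters, of which 17 were at least 2-fold higher and 0 lower. Its medians at 2, 10 and 24 h were 2.66, 2.57 and 1.32. CYP81D8 and CYP81D11 had log2 ratios of 5.20 and 4.34 at 5 h, UGT75B1 had 4.35, UGT73B3 had 4.11 and the oxophytodienoate reductase gene OPR1 had 4.0. The exporter genes ABCG40 and DTX1 were both at 0.47. Members of this list were chosen with earlier results of these data known, so its rank and counts do not describe whole families. Picked by words in the array annotation instead, 26 of 126 UDP-glucosyltransferases (20.6%) were at least 2-fold higher. For cytochrome P450 genes it was 15 of 232 (6.47%) and for ABC transporters 4 of 99 (4.04%), against 6.09% of all probes.

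Of 31 glutathione transferase genes, 15 were at least 2-fold higher and 2 at least 2-fold lower. GSTU24 had signals of 7245 in SA-treated and 133 in untreated plants, a log2 ratio of 5.12. The untreated spot of GSTU4 was not well above background, and the gene was at least 23.8-fold higher. GSTF6, GSTF8 and GSTF3 had 3.69, 3.6 and 3.51. GSTU20, linked to glucosinolate synthesis, and GSTU18 were the 2 lower members, at -1.95 and -1.15. Tandem and close relatives in these families share sequence, and the probes' specificity was not analysed here.

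Heat shock factors and chaperones had a median of 2.04 over 22 genes, with 17 at least 2-fold higher and 0 lower, against medians of 1.19, 2.33 and 1.61 at 2, 10 and 24 h. The gene named HSP70 in the list (AT3G12580) had 4.65, HSP101, a chaperone that dissolves aggregates, had 3.42, and the small heat shock protein gene AT1G53540 had 4.37. The regulators HSFB2A and HSFB1 had 2.41 and 2.35, and DREB2A was at 0.23. Of 6 mitochondrial stress genes 4 were at least 2-fold higher, led by the NADH dehydrogenase gene NDB2 at 2.88. AOX1A, the alternative oxidase, had 1.86.

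Lists of protein folding and protein breakdown were further from 0 at 10 h than at 5 h. The same held for the medians of other lists, among them SA defence outputs, senescence and darkness, glutathione transferases and pattern-triggered immunity. It did not hold for detoxification or for SA and pipecolic acid synthesis. Folding and secretion in the endoplasmic reticulum had medians of -0.30, 1.0, 2.13 and 0.43 at 2, 5, 10 and 24 h, with 10 of 20 genes at least 2-fold higher at 5 h. BZIP60, a factor of the unfolded protein response, was already high at 2 h, with log2 ratios of 2.43, 3.79, 2.94 and 1.94. BIP1, an endoplasmic reticulum chaperone, had -0.83, 1.85, 2.70 and 0.40, and the untreated spot of its relative BIP3 was not well above background at 5 h, where the SA-treated level was higher by at least 3.6-fold. For the 26S proteasome the medians were 0.00, 0.12, 0.81 and 0.64. At 5 h 3 of 31 subunit genes were at least 2-fold higher, against 6.09% of all probes. They were RPT3 with 1.39, PAF1 with 1.32 and AT5G23540 with 1.11.

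Senescence and darkness genes had a median of 1.58 at 5 h, with 14 of 19 at least 2-fold higher and 0 lower. BCAT2, a branched-chain amino acid transaminase, had 4.03, GDH2, a glutamate dehydrogenase, had 3.89, and the asparagine synthetase gene ASN1 had 3.56. SAG12, the classical marker of leaf senescence, was at -0.11. Of 7 chlorophyll breakdown genes 0 reached 2-fold at 5 h, from -0.66 for NYC1 to 0.93 for PPH.

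Pattern-triggered immunity and camalexin genes had a median of 0.73, with 8 of 20 at least 2-fold higher. PAD3, the last enzyme of camalexin synthesis, had signals of 3435 in SA-treated and 75 in untreated plants and log2 ratios of 2.22, 4.67, 4.22 and 0.97 at 2, 5, 10 and 24 h. The flagellin receptor gene FLS2 was at 0.36 and the kinase gene FRK1 at 0.70. Of 28 jasmonate and ethylene genes 5 were at least 2-fold higher and 1 lower. OPR3, a reductase of jasmonate synthesis, had 3.86, while AOS, an earlier enzyme of the same pathway, had 1.17, -1.37, -0.54 and -0.03. The repressor genes JAZ9 and JAZ1 had 2.21 and 1.66.

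**Figure D3:**
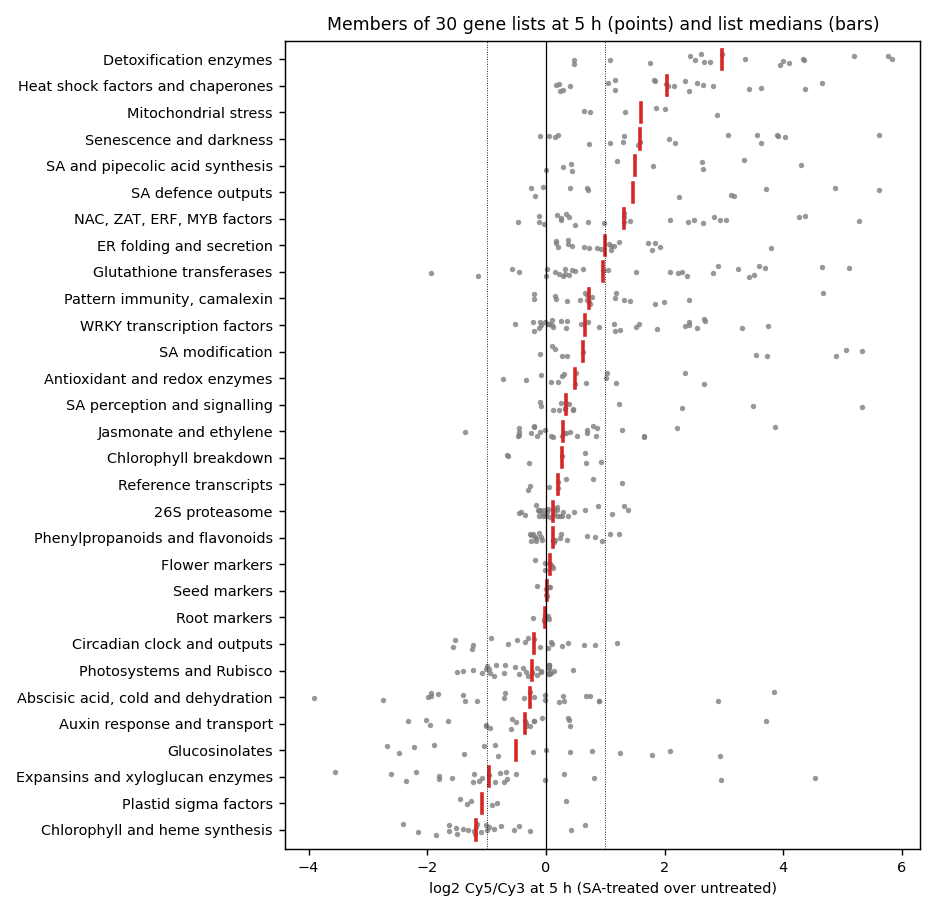
Log2 Cy5/Cy3 ratios at 5 h (SA-treated over untreated) of every measured member of 30 gene lists, 1 point per gene, with red bars at list medians and dotted lines at 2-fold; lists run from the highest median (detoxification, 2.96) to the lowest (chlorophyll and heme synthesis, -1.17). Flower, seed and root markers lie within 2-fold. The lists were chosen with earlier results of these data known.

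Chlorophyll and heme synthesis was the list with the lowest median at 5 h, -1.17, with 15 of 24 genes at least 2-fold lower and 0 higher. Its medians at 2, 10 and 24 h were -0.49, -1.28 and -1.03. PORB, a protochlorophyllide oxidoreductase, had signals of 2366 in SA-treated and 10947 in untreated plants, a log2 ratio of -2.41. CHLI2, a subunit of magnesium chelatase, had -2.15, PORC had -1.85 and HEME1, a uroporphyrinogen decarboxylase, had -1.64. FC1, a ferrochelatase, and HEMA2, a glutamyl-tRNA reductase, were on the other side of 0, at 0.66 and 0.43.

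The 6 plastid sigma factor genes, whose products direct the plastid RNA polymerase, had a median of -1.08. SIG4, SIG6 and SIG2 were at least 2-fold lower at 5 h, at -1.44, -1.33 and -1.26, and SIG5 was at 0.34. Among the 4 times SIG4 ranged from -1.44 at 5 h to 0.06 at 10 h.

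Many photosystem and Rubisco genes were too bright to measure, with 13 of 35 saturated in at least 1 channel at 5 h and 9 in both. Over the 17 members unsaturated on every SA array, a choice made after seeing the data, the medians were -0.01, -0.69, -1.17 and -0.52 at 2, 5, 10 and 24 h, and 4 of the 17 were at least 2-fold lower at 5 h and 9 at 10 h. With the saturated members included, the 5 h median was -0.24 and 5 of 35 were at least 2-fold lower. PSAD-2, a photosystem I subunit, had -1.51 at 5 h, LHCB4.2 of the light-harvesting antenna had -1.40 and PSAD-1 had -1.24.

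Cell wall and auxin genes had more members lower than higher. Of 23 expansins and xyloglucan enzymes, 11 were at least 2-fold lower and 2 at least 2-fold higher, with a median of -0.96, against -0.27, -0.86 and 0.03 at 2, 10 and 24 h. EXPA6, XTH8 and EXP3 had -2.62, -2.37 and -2.20 at 5 h. XTH30 and TCH4 were the higher members, at 4.53 and 2.95. Of 21 auxin genes 6 were at least 2-fold lower and 1 higher. The transporter genes PIN7, AUX1 and PIN3 had -2.32, -2.03 and -1.64, the repressor gene SHY2 had -1.96, and GH3.3, which conjugates auxin to amino acids, had 3.71.

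Glucosinolates are sulfur-rich defence compounds made from tryptophan (the indole branch) or methionine. Higher members, of the indole branch or of shared steps, were SOT16 at 2.94, CYP83B1 at 2.08, CYP79B2 at 1.78 and UGT74B1 at 1.24. Lower members of the methionine-derived branch were CYP83A1 at -2.68, MAM1 at -2.47, BCAT4 at -2.23 and the branch's regulator MYB28 at -1.04. MYB34, a regulator of the indole branch, was also lower, at -1.88. In all, 4 of 16 members were at least 2-fold higher and 6 at least 2-fold lower. Phenylpropanoid and flavonoid genes had a median of 0.12. PAL1, which opens this pathway, had log2 ratios of -0.86, 1.24, -0.70 and -0.01, and the chalcone synthase gene CHS had 0.26 at 5 h, against -3.54 at 10 h. By the channel levels described further on, PAL1 was at 10.94, 10.19, 10.27 and 10.00 in SA-treated plants. In untreated plants PAL1 was at 11.80, 8.96, 10.97 and 10.01, lowest at 5 h.

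To describe what set 5 h apart, probes with a value at all 4 times (19736) were searched for log2 ratios of at least 1 that also lay at least 1 above each other time. By this rule 80 probes (0.405%) were highest at 5 h, against 66 (0.334%) at 2 h, 178 (0.902%) at 10 h and 73 (0.37%) at 24 h. In the other direction 44 probes (0.223%) were lowest at 5 h, against 14 (0.0709%) at 2 h, 129 (0.654%) at 10 h and 178 (0.902%) at 24 h. The 4 values of a gene are given side by side, each against the untreated plants of its own array, whose levels differed between arrays in some genes, as the channel levels given further on show. At the edge of the rule, STH at 1.12 was 1.0005 log2 units above its next time and counted, while AT1G33100 at 1.49 was 0.9959 above and did not.

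The 12 largest margins above the other times were held by genes of several functions. AT4G36850 had log2 ratios of 1.66, 4.61, 0.80 and 1.06 at 2, 5, 10 and 24 h. BETA-OHASE 2, a carotenoid hydroxylase, had 0.85, 3.42, -0.59 and 0.44. PBS3, ICS1 and SOT12, described above, were 3 of the 12. The nitrate reductase genes NIA1 and NIA2 were both in this set, with 0.11, 2.97, 0.89 and 0.22 for NIA1 and 0.98, 2.87, 0.34 and 0.95 for NIA2. APR2, which reduces activated sulfate, had -0.27, 2.11, 0.21 and -0.07. GSTU17 had 0.02, 2.1, -1.65 and -0.05. ERD2 (AT1G56410), an HSP70-type chaperone gene, had 0.07, 3.42, 1.31 and 1.52, and the scanner software likewise put a surrogate in place of its SA-treated signal at 2 h. AT1G62045 and AT2G28400 stood at 3.63 and 4.0 at 5 h, with the other times between 0.90 and 2.16.

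The 12 largest margins below the other times included 3 of the genes with cell wall or cold roles described above. EXPA8 had -0.79, -3.55, -1.71 and -0.40, AT3G07010 had -0.44, -2.96, -0.91 and -0.51, and COR413IM1 had 0.52, -2.74, -0.74 and -0.89. DRT100 had -1.32, -3.00, -1.33 and -0.26. AT4G32340 and AT3G62550, both putative proteins by annotation, had -2.60 and -2.53 at 5 h and values between -0.48 and 1.03 at the other times. EXL5, the LIM protein gene WLIM2a and the trypsin inhibitor gene AT2G43530 had -2.1, -2.12 and -1.77 at 5 h.

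**Figure D4:**
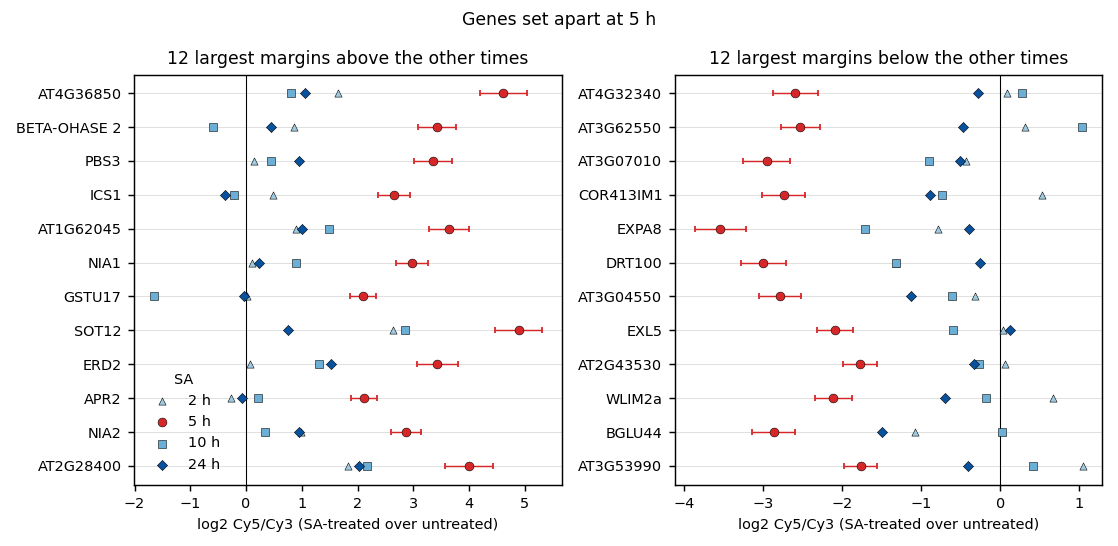
Log2 Cy5/Cy3 ratios (SA-treated over untreated) at 2, 5, 10 and 24 h, 1 array per time, of the 12 genes with the largest margin of the 5 h value above every other time (left) and below every other time (right); red bars are the scanner software's error of the 5 h spot. PBS3 and ICS1 were within 2-fold of untreated plants at 2, 10 and 24 h.

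A ratio moves with either channel, so the levels of SA-treated and untreated plants were also followed separately, after quantile normalization of brightness between the 4 SA arrays. Of the 80 probes highest at 5 h, the SA-treated level was the highest of the 4 times in 63 and the untreated level the lowest of the 4 in 36. Of the 44 lowest at 5 h, the SA-treated level was the lowest of the 4 times in 26 and the untreated level the highest of the 4 in 37. Median shifts of the 5 h level from the mean of the other times were 1.27 log2 units in SA-treated and -0.50 in untreated plants for the first set. For the second set they were -0.66 in SA-treated and 0.91 in untreated plants. These levels rest on the normalization between arrays, of which the 2 h array was dim.

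The channel levels separated genes with like ratios. For ICS1 the log2 levels at 2, 5, 10 and 24 h were 7.80, 9.55, 7.04 and 7.46 in SA-treated and 7.31, 6.89, 7.25 and 7.83 in untreated plants, and for PBS3 they were 7.64, 10.03, 7.40 and 8.2 against 7.49, 6.68, 6.95 and 7.26. In both genes the treated level was the one that stood out at 5 h. NIA2 had 13.27, 13.45, 12.69 and 12.66 in SA-treated and 12.29, 10.59, 12.35 and 11.71 in untreated plants, so its untreated level stood out as low at 5 h. AT4G36850, which had the largest margin, had 11.96, 11.71, 9.58 and 9.31 in SA-treated and 10.31, 7.1, 8.78 and 8.25 in untreated plants, and APR2 had 11.65, 11.07, 10.80 and 8.86 against 11.92, 8.97, 10.59 and 8.93. In both the SA-treated level was higher at 2 h than at 5 h, and the untreated level at 5 h was far below that at 2 h. GSTU17 had 11.67, 11.12, 9.93 and 9.42 in SA-treated and 11.65, 9.02, 11.58 and 9.47 in untreated plants. COR15B had 8.78, 7.55, 7.09 and 7.01 in SA-treated and 8.29, 11.45, 8.46 and 10.97 in untreated plants, and its untreated level was high at 5 and 24 h. AT3G62550 had 9.14, 10.12, 10.63 and 11.53 in SA-treated and 8.83, 12.65, 9.60 and 12.01 in untreated plants. PR2 had 7.54, 7.76, 8.40 and 10.39 in SA-treated and 7.23, 7.81, 8.39 and 10.19 in untreated plants. PR5 had 9.29, 8.02, 10.56 and 10.92 against 9.13, 8.26, 9.98 and 10.10. In both genes the levels of both channels were higher at 24 h than at 5 h.

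Genes of the circadian clock, a day-night oscillator in which LHY and CCA1 peak around dawn, also differed between the arrays. Of 19 clock genes and close outputs, 1 was at least 2-fold higher and 4 at least 2-fold lower at 5 h, against 6.09% and 3.66% of all probes. LHY had log2 ratios of -0.79, 1.2, -2.57 and 0.86 at 2, 5, 10 and 24 h. GRP7, an RNA-binding protein under clock control, had 0.57, -1.57, 2.53 and -1.61, and PRR5 had 0.36, -1.53, 1.93 and -1.74. The untreated plants differed among arrays in these genes. Untreated LHY had log2 levels of 8.69, 6.14, 9.20 and 6.62, while SA-treated LHY stayed between 6.63 and 7.90. Untreated GRP7 had 7.59, 9.89, 6.89 and 8.51, with SA-treated levels of 8.16, 8.32, 9.42 and 6.90. The labels give no hour of sampling for treated or untreated plants, and the part of the clock in the 5 h ratios was not tested.

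On the array of overexpressor line 2, where the clock genes LHY and GRP7 had log2 ratios of 4.01 and -3.55, some of the 5 h genes differed in the same direction. Of 77 probes at least 4-fold lower at 5 h, 39 (50.6%) were at least 2-fold lower in line 2, 8.02% of the probes lower there, against 2.26% of all probes. In line 1 the count was 1 of 77 (1.30%), against 0.0839% of all probes. Of 422 probes at least 4-fold higher at 5 h, 57 (13.5%) were at least 2-fold higher in line 2, 14.2% of the probes higher there, against 1.87% of all probes. In line 1 the count was 11 of 422 (2.61%), 26.8% of the 41 probes higher there, against 0.191% of all probes. The 422 include SIB1, the overexpressed gene itself, at 5.25 and 5.59 in lines 1 and 2. In the opposite direction, 11 of the 422 (2.61%) were at least 2-fold lower in line 2, against 2.26% of all probes. In line 1, 4 of the 422 (0.948%) were lower, 22.2% of the 18 probes lower there, against 0.0839% of all probes. Of the 77, 1 was higher in line 2 and 0 in line 1. Among the probes lowest at 5 h by the margin, 20 of 44 were at least 2-fold lower in line 2, and 24 remained without them. Among those highest at 5 h by the margin, 15 of 80 were at least 2-fold higher in line 2, and 65 remained. Of the 12 genes with the largest margins above, 5 were at least 2-fold higher in line 2: NIA2 at 1.97, BETA-OHASE 2 at 1.61, APR2 at 1.59, AT4G36850 at 1.5 and NIA1 at 1.07. ICS1, PBS3 and SOT12 had -0.10, -0.15 and -0.43 there. Of the 12 with the largest margins below, 9 were at least 2-fold lower in line 2, and EXL5, DRT100 and AT3G07010 were not, at 0.02, 0.17 and -0.12. In line 1, 0 of these 24 genes differed by 2-fold.

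Abscisic acid, cold and dehydration genes had a median of -0.27 at 5 h, with 9 of 25 at least 2-fold lower and 2 at least 2-fold higher. RD29A, a gene of cold and drought, had log2 ratios of -0.39, -1.99, 0.00 and -2.83 at 2, 5, 10 and 24 h and -2.67 in line 2. CBF3, which activates cold genes, had -1.93 at 5 h and -2.45 in line 2. The higher members were ERD5, a proline dehydrogenase, at 3.84 and ERD1, a protease regulator, at 2.91, with 0.29 and 0.26 in line 2.

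**Figure D5:**
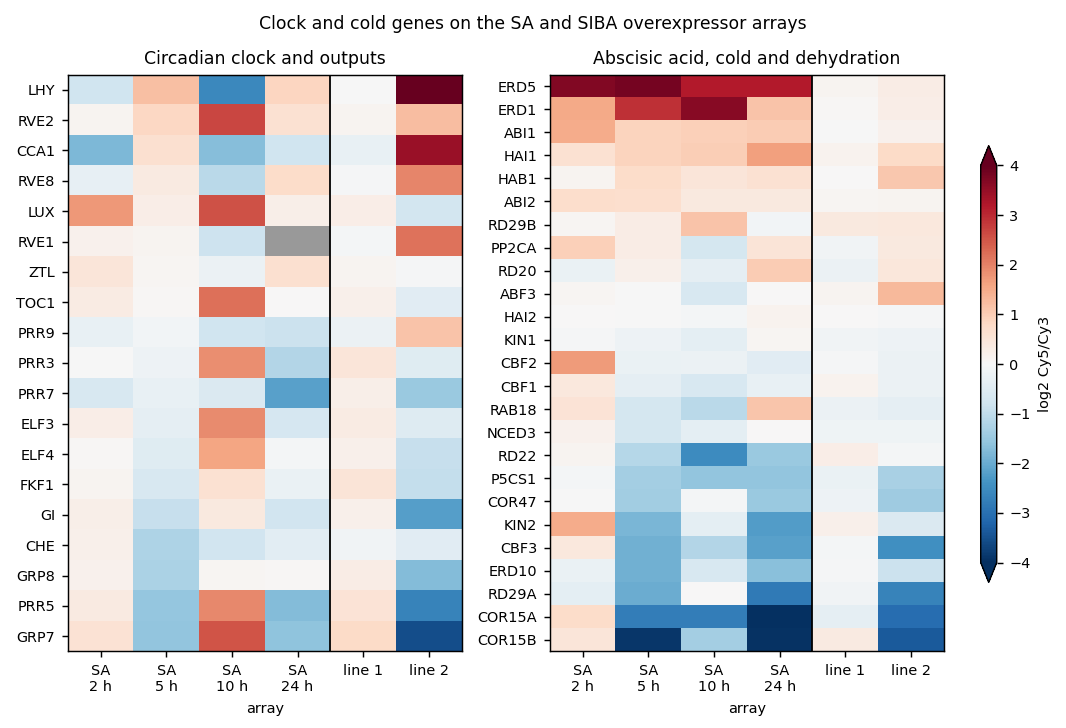
Log2 Cy5/Cy3 ratios (colour, cut at -4 and 4; grey where a spot had an outlier mark) of clock genes (left) and abscisic acid, cold and dehydration genes (right) on the 4 SA arrays (SA-treated over untreated) and the 2 SIBA overexpressor arrays (overexpressor over vector control), with genes ordered by the 5 h ratio. GRP7 and PRR5 were below 0 at 5 h and 24 h and in line 2 and above 0 at 2 h and 10 h.

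Organ markers were set against the labelled tissue. All 35 photosynthesis genes had signals of at least 900 in SA-treated and 697 in untreated plants at 5 h. The 7 root markers ranged from 29.2 to 327 in SA-treated and from 37.1 to 333 in untreated plants, flower markers reached at most 104 and 93, and seed markers 91 and 85. None of the 20 differed by 2-fold. In bulk tissue, fewer cells of a type and less RNA per cell cannot be told apart. Of 8 reference transcripts, 7 were within 2-fold at 5 h, from -0.30 for AT2G28390 to 0.80 for ACT2, and UBQ10, saturated in SA-treated plants, was at least 2.45-fold higher.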

How the data were processed

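Total RNA was linearly amplified and labelled with Cy3 for controls and Cy5 for treated plants, per the labels' protocols. Per the file headers, the deposited Agilent files hold spot mean and local background intensity, outlier, saturation and background marks, a log10 ratio of the scanner software and its error, deposited as a score in the same log10 units and multiplied here to log2. The deposited series table holds a linear ratio per probe, whose log2 correlated with the computed log2 ratio at r = 0.982 across 21154 probes at 5 h; how it was normalized is not stated. The files name no genome build.

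Mean signals were corrected for local background by normexp (offset 50) and log ratios were centred by loess on each array separately, giving outlier spots weight 0, in R 4.3.3 and limma 3.58.1; figures used Python 3.11.15 and matplotlib 3.10.9. The step was tested on simulated data. Signals quoted are means minus local background. Bounds and channel levels come from loess and quantile normalization of brightness over the 4 SA arrays and are open to dye bias; a bound sets a dim channel at the lowest signal well above background, or its own signal if higher. 1 array per time limits the precision. Names come from RefSeq's TAIR10.1 table, which held 21157 of the 21342 loci, and no locus had more than 1 probe. Of 554 genes in 30 lists, 543 had a probe.

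Members and lists were chosen with earlier results of these data known. Named genes were the 15 highest and 15 lowest at 5 h, the 12 largest margins each way, up to 4 members per list and side, and 9 fixed markers, among probes with 1 locus, no outlier mark, a signal well above background in at least 1 channel and no saturation in both. Other list members named to fill out a pathway, and the genes of the neighbour runs and word searches, were chosen after their values were seen. Promoter sequences and their motifs were not analysed here. Alternatives were the offset 16, median centring, the scanner's ratio, the authors' ratio, outlier spots kept, a brightness filter, another margin, arrays left out, and scaled arrays.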

Additional observations from a re-analysis of the deposited data

Results flagged for a closer look

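In 9 named genes the 5 h ratio was at least 2-fold one way and the ratio at another SA time at least 2-fold the other way, with 1 array each, so the difference was not tested. Higher at 5 h and lower at 10 h were GSTU17, with log2 ratios of 2.1 at 5 h and -1.65 at 10 h, and LHY, with 1.2 and -2.57. UGT74B1, a glucosinolate glucosyltransferase, had -1.18 at 2 h and 1.24 at 5 h. Lower at 5 h and higher at 10 h were PRR5 (-1.53 at 5 h, 1.93 at 10 h), GRP7 (-1.57 and 2.53), AT3G62550 (-2.53 and 1.03) and OEP16-1 (-2.87 and 1.14). AOS had 1.17 at 2 h and -1.37 at 5 h, and AT3G53990 had 1.04 and -1.77. In all 9 the untreated log2 level differed more between the times compared than the SA-treated level did. From 2 h to 5 h, UGT74B1 had 11.26 and 9.30 in untreated and 10.08 and 10.55 in SA-treated plants. AOS had 11.92 and 13.47 in untreated and 13.09 and 12.10 in SA-treated plants. In line 2 of the overexpressor, LHY, PRR5, GRP7, AT3G62550, OEP16-1, AT3G53990 and AOS differed by at least 2-fold in the direction of their 5 h ratio, with log2 ratios of 4.01, -2.67, -3.55, -4.23, -2.46, -1.84 and -1.27, while GSTU17 was at -0.74 and UGT74B1 at -0.15.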

How the results depend on the processing

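No paired analysis was possible because each SA time has 1 array and the labels give no replicate number shared between groups. The count at least 2-fold higher (1307) ran from 1307 to 1715 over the alternatives and the count of list genes at least 2-fold higher (222) from 222 to 249. The count at least 2-fold lower (785) was 644 with median centring, 981 with an offset of 16, 1239 with the scanner software's ratio and 1280 with the authors' ratio. The 80 probes highest at 5 h became 169 when the 2 h array was left out, 216 when the 10 h array was, 21 with a margin of 1.5 and 206 with the 4 SA arrays scaled to the same median absolute log ratio. The 44 lowest at 5 h became 71 with median centring, 69 with the scanner's ratio, 77 with the authors' ratio, 158 when the 10 h array was left out, 108 when the 24 h array was, 8 with a margin of 1.5, 169 with scaled arrays, and 24 without probes at least 2-fold lower in line 2, an alternative chosen after seeing the data. Leaving out an array lists more probes by construction, since fewer times must be passed; for the ratio settings the cause was not tested. Of the 80 highest, 51 were shared with the scanner's ratio, 57 with median centring and 70 with the authors' ratio, and of the 44 lowest, 40, 39 and 43. Of 229 named genes, 51 moved by more than their spot's scanner error with the scanner's ratio, 46 with the authors' ratio and 32 with an offset of 16. Of 30 list medians, 11, 8 and 3 moved by more than the list's median error. No named gene or list median at least 2-fold from 0 changed sign under these settings. Low signal bounds what can be called lower, as described for the dimmest group of probes.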

Other observations

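Families picked by words in the array annotation gave further groups at 5 h. Of 42 histone genes 7 were at least 2-fold lower and 0 higher, with a median log2 ratio of -0.47, and the counts lower at 2, 10 and 24 h were 3, 0 and 4. Of 101 pectate lyase or pectinesterase genes 12 were lower and 2 higher, and of 29 expansin genes 8 were lower and 0 higher. Glutathione transferases had 18 of 47 higher, heat shock proteins 30 of 82, UDP-glucosyltransferases 26 of 126, and calcium-binding or calmodulin-like proteins 14 of 85, where 6.09% of all probes were higher and 3.66% lower. In the same order the counts higher were 9, 19, 21 and 11 at 2 h, 22, 28, 21 and 20 at 10 h, and 19, 18, 16 and 11 at 24 h, so glutathione transferases and calcium-binding proteins had more members higher at 10 h than at 5 h. WRKY factors had 16 of 71 higher (22.5%), TIR class resistance proteins 4 of 29 (13.8%) and receptor kinases 19 of 203 (9.36%). NAC domain genes had 3 of 27 higher (11.1%) and sulfotransferases 2 of 17 (11.8%), which are small counts. Some further families were near or below the share of all probes higher at 5 h. Cytochrome P450 genes had 15 of 232 higher (6.47%) and 14 lower. Disease resistance proteins of any class had 16 of 272 higher (5.88%) and 1 lower, and ABC transporters 4 of 99 higher (4.04%) and 0 lower. Ribosomal proteins had 3 of 290 higher and 1 lower, and transposon genes 0 of 175 in either direction.

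Some genes far from 0 at 5 h lie next to each other. In the order of measured loci, 20 runs of at least 3 neighbours were at least 2-fold higher and 4 were at least 2-fold lower. The longest held 5 loci on chromosome 1, AT1G72900 to AT1G72940, with log2 ratios from 1.59 to 4.87, among them the gene TIR. The UGT73B3, UGT73B2 and UGT73B1 run on chromosome 4 had 1.08 to 4.11, and a run on chromosome 1 held PCR2 and PCR1, with 1.45 to 4.93. A lower run on chromosome 5 held the auxin-responsive genes SAUR19 and SAUR20, with -1.84 to -1.52. Of 20434 neighbouring pairs, 0.744% were higher in both members. Of single loci, 6.31% were higher, but a share of pairs and a share of loci cannot be compared directly. Whether neighbours were higher together more often than loci far apart was not tested. Neighbours of 1 family can share sequence, and the part of shared hybridization in these runs was not tested.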
